A study of Mus musculus with 17 samples.

Results

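The comparison described here is between B220+CD23-IgM+ cells of c-myb h/h mice and of control mice, 5 of the 17 arrays of the series, chosen by the genotype and cell type in the sample labels. The 3 c-myb h/h arrays come from c-myb h/h LDL-R KO mice and the 2 control arrays from LDL-R KO mice, so both groups lack the low-density lipoprotein receptor, and both had been fed a high cholesterol diet over 12 weeks. The cells were sorted from spleen, and the design text describes separate mice, with data of only 2 mice in this control group. The other 12 arrays hold B220+CD23+ and IgM+CD138+ cells of the same genotypes, with 3 arrays in each of the 4 groups. The labels do not say what the h allele does to the c-myb gene, and they give no age or sex of the mice.

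Myb is a DNA-binding transcription factor that blood progenitors and early B cells need in order to divide and mature. In mouse spleen, B cells without CD23 that carry IgM are mostly marginal zone B cells, which sit beside the blood-filled sinus and respond quickly to particles in blood, together with newly arrived transitional B cells and a few B-1 cells. Follicular B cells carry CD23, and plasma cells carry CD138 (syndecan-1).

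The deposited table lists 41801 probe IDs in ascending order, of which 33327 have a log2 intensity in every array. The gene symbols that the platform annotation pairs with these IDs are not borne out by the values, because the values sit ahead of their IDs along the list. Probe sets listed for gene families that nearly all cells use averaged 0.21 log2 below those listed for families silent outside their own tissue (a signed difference of -0.21). Every result is therefore given by its listed row, meaning the position in the deposited table. A gene symbol is added only where a computed alignment of the list of values to the list of IDs placed the row on a single gene with a probability of at least 0.9, and such a symbol is an inferred name. The alignment used the mean level over all 17 arrays and no difference between groups. In a version that used no family names after its first round, the same families differed by 4.62 log2 in the direction opposite to the listed pairing. The first round of every version was started from the names of these families, so this difference is no independent check. The full alignment placed 17989 rows (54.0% of those with values) on 17311 genes, with a displacement of at most 442 rows.

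Genes that define the sorted populations had been held out of the alignment, and 20 of these 29 markers were placed. Fcer2a, the gene of CD23, had group means of 8.22 (control) and 7.69 (c-myb h/h) in B220+CD23-IgM+ cells against 10.79 and 10.70 log2 in B220+CD23+ cells, so CD23 RNA was low where the sort had been for CD23-negative cells. Within B220+CD23-IgM+ cells it read 7.84 and 8.59 in controls and 7.70, 7.72 and 7.64 in mutant arrays, highest in control replicate 2, and the genotypes differed by -0.53 log2 (limma's adjusted p = 0.76). The difference between these populations was -2.57 log2 in control mice (limma's adjusted p = 0.00306) and -3.01 in c-myb h/h mice (limma's adjusted p = 0.000296). S1pr3, a sphingosine-1-phosphate receptor of marginal zone B cells, read 9.65 and 9.89 in B220+CD23-IgM+ cells against 6.61 and 7.18 in B220+CD23+ cells, control first. Cd1d1 and Cd9, also marginal zone markers, were higher in B220+CD23-IgM+ than in B220+CD23+ cells by 1.0 and 1.42 log2 in control mice (limma's adjusted p = 0.0224 and 0.00695). Cr2 and Dtx1 differed in control mice by 0.47 and 0.78 log2 and did not pass (limma's adjusted p = 0.866 and 0.348). Over all rows, 294 (1.52%) differed between these populations in control mice and 569 (2.94%) in mutant mice. Of the plasma cell markers, Sdc1 read 10.05 in control IgM+CD138+ cells and 5.38 in control B220+CD23-IgM+ cells. Sdc1 and Jchain are no independent check, since both were looked at while the alignment was being revised. Markers that were not placed include Cd79a, Ms4a1, Mzb1, Prdm1, Lyz2 and the 3 erythroid markers.

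**Figure D1:**
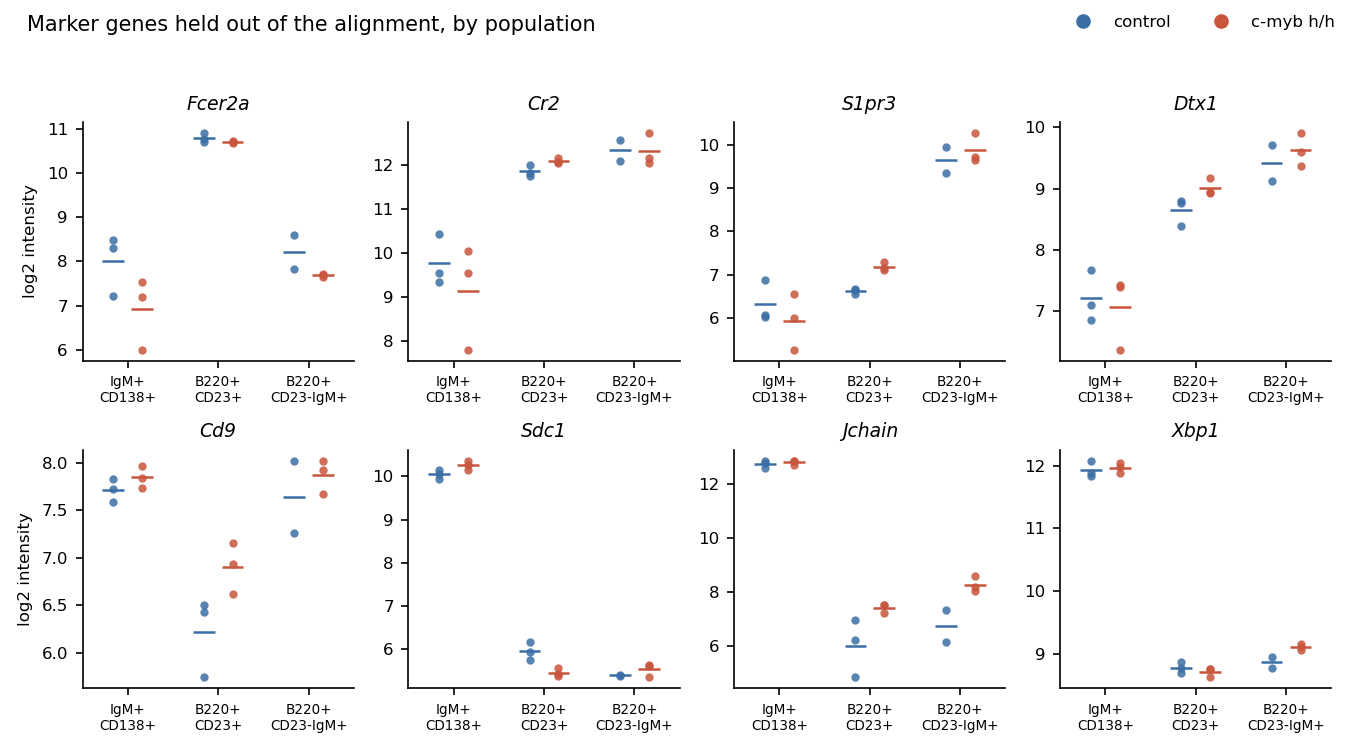
Log2 intensity (vertical axis) of 8 marker genes held out of the alignment, by sorted population (horizontal axis); each point is an array, blue for control and red for c-myb h/h, and bars are group means. Fcer2a is low and S1pr3 high in the B220+CD23-IgM+ arrays of both genotypes, and Sdc1, Jchain and Xbp1 are high in IgM+CD138+ arrays.

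The genotypes of B220+CD23-IgM+ cells differed in few rows. Of 19350 rows tested with limma, 8 passed an adjusted p of 0.05 (0.0413% of those tested), of which 6 rose (0.031%) and 2 fell (0.0103%). At an unadjusted p of 0.05, 1675 rows passed (8.66%), 933 with a positive difference (4.82%) and 742 with a negative one (3.83%). The 3 c-myb h/h arrays lay wholly above both control arrays in 2654 rows (13.7%) and wholly below them in 2680 (13.9%). A difference of at least 2-fold was fitted for 82 higher rows (0.424%) and 46 lower rows (0.238%). The median difference over all rows tested was -0.00085 log2. The count of 8 rests on few arrays: it became 47 without control replicate 1, 1 without control replicate 2, 2 without c-myb h/h replicate 1, 2 without c-myb h/h replicate 2 and 52 without c-myb h/h replicate 3. A fit of the 5 arrays alone called 0 rows, with a smallest limma's adjusted p of 0.0839 and 1748 rows at an unadjusted p of 0.05. Control replicate 2 and c-myb h/h replicate 1 were the least alike pair, with 476 tested rows at least 2-fold apart, against 186 between the 2 control arrays and 185 to 305 between c-myb h/h arrays.

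**Figure D2:**
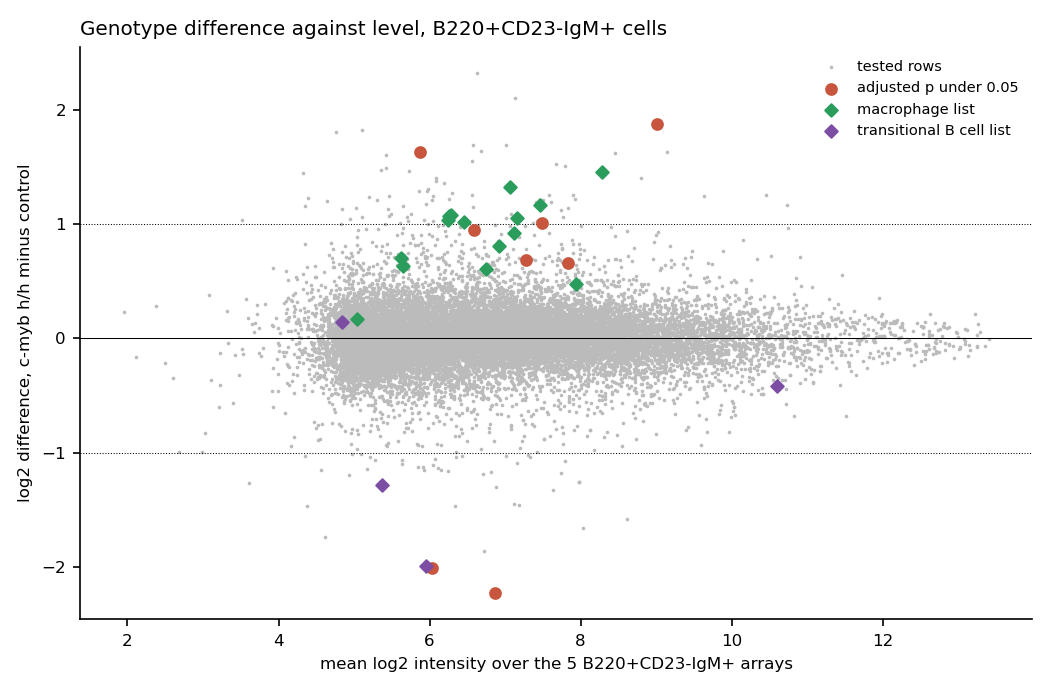
Log2 difference, c-myb h/h minus control (vertical axis), against the mean log2 intensity over the 5 B220+CD23-IgM+ arrays (horizontal axis) for each of the 19350 rows tested; dotted lines mark 2-fold. Red circles are the 8 rows with an adjusted p under 0.05, and diamonds are the placed genes of the macrophage list (green) and the transitional B cell list (purple), whose members lie mostly above and below 0.

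The strongest call was listed row 39420, which fell by 2.23 log2 (SE 0.18, limma's adjusted p = 8.72e-05), a 4.69-fold difference. It read 8.0 and 8.40 in the control arrays and 5.86, 6.14 and 5.92 in the c-myb h/h arrays, so the groups lay far apart. The same row was lower in c-myb h/h arrays of the other populations, by 1.38 log2 in B220+CD23+ cells (limma's adjusted p = 0.00356) and 1.59 log2 in IgM+CD138+ cells (limma's adjusted p = 0.00171). Its most probable symbol, Mid1, reached a probability of only 0.43, with Erdr1 next at 0.323, so no gene is named. Row 38485 read 6.61 and 7.86 in control arrays and 4.86, 5.35 and 5.47 in c-myb h/h arrays, and fell by 2.01 log2 (SE 0.31, limma's adjusted p = 0.0348). It was placed on an ID that carries the symbols G530011O06Rik and Mid1 (probability 0.988) and is likewise not named. Mid1 is thus a candidate for both fallen rows, and whether they read the same gene was not tested. Its c-myb h/h arrays also lay below all controls in both other populations, without passing the adjusted test there (limma's adjusted p = 0.352 in B220+CD23+ and 0.185 in IgM+CD138+ cells).

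Dyrk4 (row 31501, placed with a probability of 0.999), the gene of a dual-specificity kinase, was the named gene with the largest called rise. It read 5.23 and 4.57 in the control arrays and 6.42, 6.38 and 6.80 in the c-myb h/h arrays, a rise of 1.63 log2 (SE 0.20, limma's adjusted p = 0.00689) or 3.10-fold. It also rose in B220+CD23+ cells, by 1.09 log2 (limma's adjusted p = 0.0226), and differed by 0.30 log2 in IgM+CD138+ cells (limma's adjusted p = 0.614). Sdc3 (row 26382, probability 0.933), the gene of the cell-surface proteoglycan syndecan-3, read 6.88 and 6.90 in controls and 7.98, 7.98 and 7.73 in c-myb h/h arrays. It rose by 1.01 log2 (SE 0.14, limma's adjusted p = 0.0171) and was higher in IgM+CD138+ cells as well, by 0.74 log2 (limma's adjusted p = 0.0246). In B220+CD23+ cells its difference of 0.42 log2 did not pass (limma's adjusted p = 0.354).

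Pard3b (row 5740, probability 0.923), a relative of the cell polarity gene Pard3, read 6.07 and 5.96 in controls and 7.02, 6.95 and 6.92 in c-myb h/h arrays. It rose by 0.95 log2 (SE 0.14, limma's adjusted p = 0.0183), and by 1.10 log2 in B220+CD23+ cells (limma's adjusted p = 0.00338). Cdc42ep3 (row 19273, probability 1.0) encodes an effector of the small GTPase Cdc42, which shapes the actin skeleton. It read 6.88 and 6.86 in controls and 7.55, 7.61 and 7.51 in c-myb h/h arrays, the tightest separation of the 8 rows, and rose by 0.69 log2 (SE 0.10, limma's adjusted p = 0.0171). In B220+CD23+ cells its groups overlapped (-0.04 log2, limma's adjusted p = 0.993), whereas in IgM+CD138+ cells its 3 c-myb h/h arrays lay above the controls (0.38 log2, limma's adjusted p = 0.0913). Plekhb2 (row 5603, probability 0.932), which encodes a pleckstrin homology domain protein of endosomes, read 7.54 and 7.34 in controls and 8.22, 8.03 and 8.05 in c-myb h/h arrays. Its rise of 0.66 log2 (SE 0.11, limma's adjusted p = 0.0447) was the weakest call and was lost under 8 of 19 alternatives.

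Row 12624, placed on an ID without a symbol, read 8.22 and 7.56 in controls and 9.97, 9.91 and 9.42 in c-myb h/h arrays. It rose by 1.87 log2 (SE 0.28, limma's adjusted p = 0.02) and by 1.94 log2 in B220+CD23+ cells (limma's adjusted p = 0.00444). The next row, 12625, read 8.44 and 7.90 against 10.18, 9.98 and 9.25, a difference of 1.63 log2 that did not pass (limma's adjusted p = 0.193). Of the 13 tested rows within 10 places of row 12624, 5 had all c-myb h/h arrays above both controls and 2 had them below, beside 13.7% and 13.9% of all rows. The alignment places row 12622, among the 5, on Igh-VS107, a heavy chain variable gene. The best symbol of row 12627 was Ighg3 (probability 0.972), and that of rows 12628 and 12632 was Ighm (0.971 and 0.967), both heavy chain genes. In control mice rows 12624 and 12625 were 2.71 and 5.42 log2 higher in IgM+CD138+ than in B220+CD23+ cells (limma's adjusted p = 4.40e-07 and 2.93e-08). The tested neighbours of row 38485 also held 1 row at least 2-fold apart, and those of the other 6 called rows held 0. Next to row 5740, row 5741 differed by 0.90 log2 (limma's adjusted p = 0.146), and it could not be placed, since its best symbol, Nrp2, had a probability of 0.887.

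**Figure D3:**
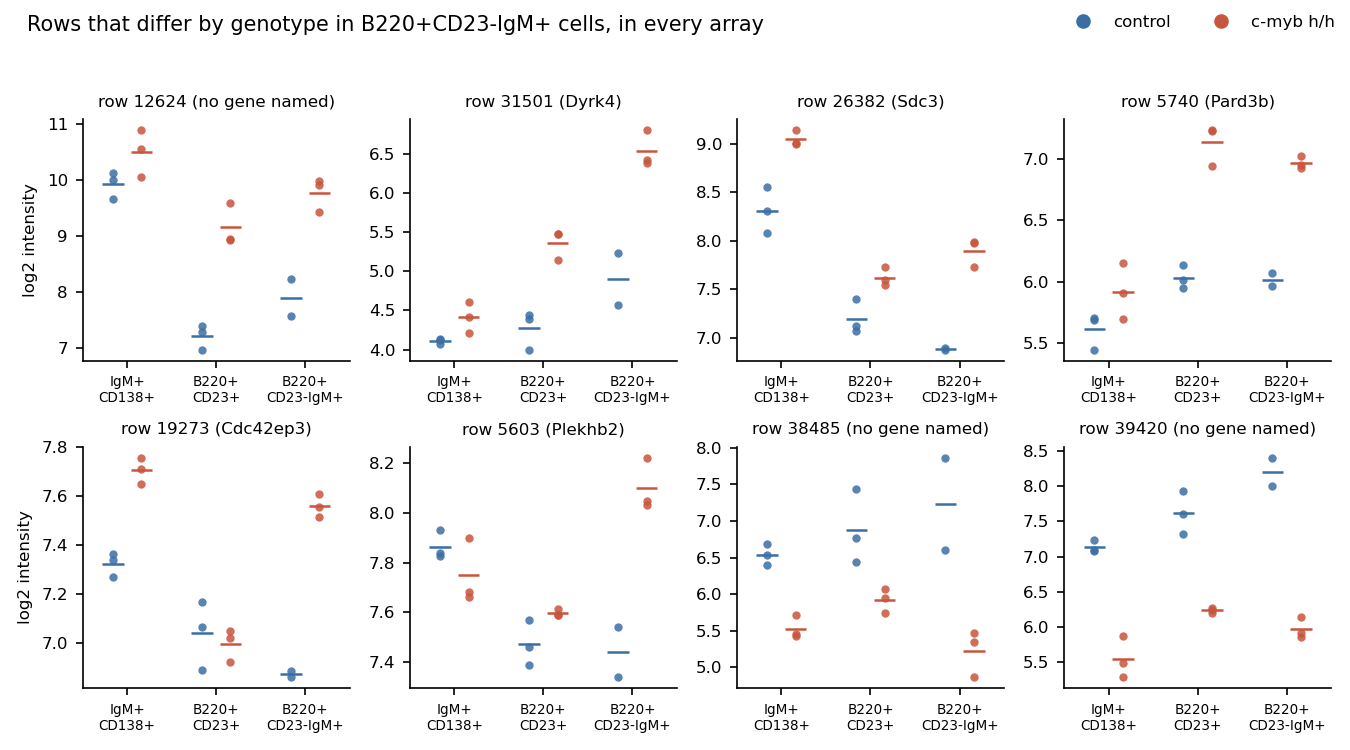
Log2 intensity (vertical axis) of the 8 rows with an adjusted p under 0.05 in every array, by sorted population (horizontal axis); points are arrays, blue for control and red for c-myb h/h, and bars are group means. In the B220+CD23-IgM+ arrays no row has overlapping groups, and rows 39420, 38485, 31501 and 26382 separate the genotypes in all populations.

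Because Myb binds DNA, the promoter letters of the named genes are shown for 3 called genes, as sequence of RefSeq on build GRCm38.p6 matched by symbol. Each is the 250 bases before the gene's start, written 5′ to 3′ on the gene's strand. Capitals mark the letters CAACTG or TAACTG or CAACGG or TAACGG, searched on both strands, which are forms of the known Myb recognition sequence. Dyrk4 lies at chr6:126921840-126922089 (minus strand), Pard3b at chr1:61638574-61638823 (plus strand) and Cdc42ep3 at chr17:79355092-79355341 (minus strand).
Dyrk4: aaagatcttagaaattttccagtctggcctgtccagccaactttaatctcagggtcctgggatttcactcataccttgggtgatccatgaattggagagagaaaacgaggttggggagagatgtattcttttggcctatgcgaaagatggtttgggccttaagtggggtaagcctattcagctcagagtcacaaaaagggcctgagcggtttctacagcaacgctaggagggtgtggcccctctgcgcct
Pard3b: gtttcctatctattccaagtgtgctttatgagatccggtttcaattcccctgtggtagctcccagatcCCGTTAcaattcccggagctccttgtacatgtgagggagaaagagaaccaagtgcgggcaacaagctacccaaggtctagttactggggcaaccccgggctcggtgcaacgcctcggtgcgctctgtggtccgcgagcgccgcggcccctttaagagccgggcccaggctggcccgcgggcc
Cdc42ep3: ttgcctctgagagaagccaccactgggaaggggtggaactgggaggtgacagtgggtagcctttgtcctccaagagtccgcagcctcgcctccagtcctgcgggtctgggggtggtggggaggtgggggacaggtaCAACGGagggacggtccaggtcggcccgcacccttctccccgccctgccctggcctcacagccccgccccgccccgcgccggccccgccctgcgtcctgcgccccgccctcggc
The Pard3b and Cdc42ep3 windows each held 1 such match, and the windows of Dyrk4, Plekhb2 and Sdc3, the other named genes among the called rows, held 0. Of the 16 genes named by the rule for named rows (Myb left out), 11 had a promoter in the table and 3 of these held a match, beside 23.7% of all 27025 promoters in it. A match says only that these letters are present.

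Myb itself did not separate the genotypes by its RNA level. The brighter of the rows placed on Myb (row 8275, probability 1.0) read 6.94 and 8.30 in controls and 7.75, 7.42 and 6.66 in c-myb h/h arrays, so the groups overlapped. The difference was -0.34 log2 (SE 0.36, limma's adjusted p = 0.855), and it turned to 0.34 without control replicate 2. The dimmer row 7447 read 5.67 and 5.78 against 5.58, 5.69 and 5.56 (-0.12 log2, limma's adjusted p = 0.897). Which region of Myb these probes cover is unknown here, so they do not check the genotype labels. Of the 40 placed genes that flank Myb on chromosome 10 in RefSeq order, 20 on each side, 0 differed by at least 2-fold. Only 0.585% of all placed genes did so, and a count of 0 in 40 therefore says little. By the unadjusted threshold used above 6 of the 40 passed, beside 9.08% of all placed genes. The differences of the 40 genes ran from -0.36 to 0.97 log2, with a median of 0.03 log2 and 25 above 0. The largest was that of Adat2, whose groups did not overlap (limma's unadjusted p = 0.000191), and it was not among the called rows. Over all of chromosome 10, 2 of 511 placed genes were at least 2-fold higher and 2 at least 2-fold lower (0.783%), each taken by its brightest row. Akap12, 44 places before Myb in this order (-1.47 log2), is among the lower ones. Syne1, whose rows are described below, also lies on chromosome 10. Whether nearness to Myb has a part in these differences was not tested.

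The 5 placed genes among the 10 most negative differences did not pass the adjusted test, and all 5 were highest in control replicate 2. Cd93, the AA4.1 antigen by which transitional B cells are recognised, read 6.39 and 7.90 in controls and 5.65, 5.01 and 4.80 in c-myb h/h arrays. Its difference of -1.99 log2 (SE 0.33, limma's adjusted p = 0.0513), a 3.98-fold difference, lay just outside the threshold and became -1.24 without control replicate 2. Cd93 is also carried by plasma cells, and in control mice it was 2.47 log2 higher in IgM+CD138+ than in B220+CD23+ cells (limma's adjusted p = 7.54e-06). Serinc5 and row 30256, described next, were likewise higher there, by 2.44 and 4.08 log2 (limma's adjusted p = 0.000285 and 4.81e-07). Cecr2, which encodes a bromodomain protein of a chromatin remodelling complex, read 7.10 and 8.56 against 6.43, 6.29 and 5.19 (-1.86 log2, limma's adjusted p = 0.114). Serinc5, a membrane protein gene, read 8.26 and 9.80 against 8.19, 7.81 and 6.10 (-1.66 log2, limma's adjusted p = 0.235). Akap12, which encodes an anchor of protein kinase A, read 6.45 and 8.0 against 5.98, 5.64 and 5.65 (-1.47 log2, limma's adjusted p = 0.151). Atp1b1, the beta subunit gene of the sodium pump, read 7.24 and 8.89 against 7.08, 6.61 and 6.12 (-1.46 log2, limma's adjusted p = 0.266). In each of these genes control replicate 1 lay nearer to the c-myb h/h arrays than control replicate 2 did. Rows 12694, 30256 and 31147, placed on IDs without a symbol, complete the 10 most negative differences with rows 38485 and 39420, at -1.74, -1.58 and -1.47 log2 (limma's adjusted p = 0.306, 0.193 and 0.305). Row 30256 read 8.50 and 10.63 in controls and 8.05, 7.73 and 8.18 in c-myb h/h arrays, and its difference was -0.51 log2 without control replicate 2.

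The list of genes of transitional and immature B cells, drawn up after the values had been seen, had 11 genes, of which 6 were placed and 4 tested. Cd93, Sox4 and Cd24a had all c-myb h/h arrays below both controls, 3 of 4 genes beside 13.9% of all rows, and none passed the adjusted test. Sox4, a transcription factor gene of early B cells, read 5.15 and 7.11 in controls and 5.11, 5.07 and 4.37 in c-myb h/h arrays (-1.28 log2, limma's adjusted p = 0.414). Cd24a, whose surface protein is highest on transitional B cells, read 10.78 and 10.93 against 10.30, 10.35 and 10.67 (-0.42 log2, limma's adjusted p = 0.27). Igll1 read 0.14 log2 higher. The median difference of the 4 tested genes was -0.85 log2 beside -0.00085 over all rows, and -0.32 without control replicate 2. In B220+CD23+ cells the median was -0.54 log2, and 3 of 4 genes had c-myb h/h arrays below all controls, beside 8.95% of rows there. Vpreb1 and Rag2 were placed on rows too dim to test.

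Apart from Dyrk4 and row 12624, the 10 most positive differences did not pass the adjusted test, and they include heat shock, interferon-induced and chemokine receptor genes. Hspa1a, the inducible heat shock protein 70 gene, read 4.47 and 6.0 in controls and 6.36, 8.70 and 7.61 in c-myb h/h arrays (2.32 log2, SE 1.11, limma's adjusted p = 0.586). Its neighbour and near-identical copy Hspa1b read 5.45 and 5.95 against 6.48, 8.20 and 7.35 (1.64 log2, limma's adjusted p = 0.543), and probes may not tell the pair apart. Both also spread widely within the groups of other populations. Of a list of 11 heat shock genes that includes this pair, 9 were tested, and 8 of them lay above 0. In 5 the c-myb h/h arrays lay above both controls and in 1 below, beside 13.7% and 13.9% of all rows. The median of the list was 0.36 log2, and 0 of its genes passed the adjusted test. Ccr3, the eotaxin receptor gene, read 3.68 and 3.68 against 4.90, 5.81 and 5.73 (1.81 log2, limma's adjusted p = 0.122), dim in the control arrays. The predicted gene Gm6637 read 6.94 and 5.06 against 7.66, 7.43 and 7.98 (1.69 log2, limma's adjusted p = 0.268).

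Iigp1, an interferon-inducible GTPase gene that acts against intracellular pathogens, read 5.75 and 5.99 in controls and 8.91, 8.21 and 6.82 in c-myb h/h arrays. Its difference of 2.10 log2 (SE 0.50, limma's adjusted p = 0.146), or 4.30-fold, was matched by 1.73 log2 in B220+CD23+ cells (limma's adjusted p = 0.262). Of the list of 10 interferon-gamma-induced GTPase genes, chosen after the values had been seen, 4 could be tested. All 4, beside 13.7% of all rows, had the c-myb h/h arrays above both controls, with a median difference of 0.40 log2, and none passed the adjusted test. Igtp read 7.50 and 7.22 against 7.79, 7.77 and 7.77, and Irgm1 read 7.42 and 7.46 against 7.78, 7.81 and 7.91. The list of type I interferon genes did not follow them: its 8 tested genes had a median difference of 0.00 log2, and 4 lay above and 4 below 0.

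A list of genes was drawn up for splenic red pulp macrophages, the iron-recycling phagocytes next to the marginal zone. Its genes were higher in c-myb h/h cells as a group of values, though none of them passed the adjusted test. Marco (0.17 log2) and Fcgr4 (1.04 log2) had overlapping groups. Whether the RNA came from these macrophages was not tested. All 15 genes of the list, which was chosen after the values had been seen, were placed and tested. Their differences were all above 0, from 0.17 to 1.46 log2, beside 49.8% of all rows tested, and 13 of 15 had c-myb h/h arrays above both controls beside 13.7% of all rows. The median was 1.02 log2, and 0.68 without control replicate 2. C1qa, C1qb and C1qc, the 3 chains of complement C1q, read 1.06, 1.33 and 0.71 log2 higher (limma's adjusted p = 0.122, 0.192 and 0.224). C1qb, for example, read 6.53 and 6.0 in controls and 7.11, 7.57 and 8.09 in c-myb h/h arrays.

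Vcam1, an adhesion molecule of these macrophages, read 5.59 and 6.11 against 6.55, 6.93 and 7.12 (1.02 log2, limma's adjusted p = 0.102). Spic, the transcription factor gene that red pulp macrophages depend on, read 7.38 and 6.13 against 7.84, 8.07 and 7.86 (1.17 log2, limma's adjusted p = 0.173). Cd5l, a secreted macrophage protein gene, read 5.85 and 5.37 against 6.68, 6.59 and 6.78 (1.07 log2, limma's adjusted p = 0.127). The receptor gene Axl, which takes part in the uptake of dying cells, was 0.92 log2 higher, and the iron exporter gene Slc40a1 was 1.08 log2 higher (limma's adjusted p = 0.125 and 0.461). The list was also higher in the other populations, with medians of 0.61 log2 in B220+CD23+ and 0.90 log2 in IgM+CD138+ cells. There 8 and 12 of the 15 genes had c-myb h/h arrays above all controls, beside 7.76% and 5.63% of rows (5.2% of rows lay below all controls in IgM+CD138+ cells). C1qa, C1qc and Axl rose in IgM+CD138+ cells, by 1.23, 0.96 and 1.04 log2 (limma's adjusted p = 0.0282, 0.0461 and 0.0437). The mean level over the 15 genes was 6.31 and 5.97 in controls and 6.80, 7.15 and 7.18 in c-myb h/h arrays. The part of these genes in the other differences was not tested, and in sorted bulk RNA a change in the number of cells of a type and a change in RNA per cell cannot be told apart.

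Adgre1, the gene of the macrophage antigen F4/80, followed a different pattern of arrays. It read 7.35 and 7.46 in controls, 9.24 and 9.43 in c-myb h/h replicates 1 and 2, and 7.92 in c-myb h/h replicate 3 (1.46 log2, limma's adjusted p = 0.146). The same pattern held for Itgax, the gene of CD11c, at 7.17 and 6.62 in controls and 8.89, 9.01 and 7.30 in c-myb h/h arrays (1.51 log2, limma's adjusted p = 0.34). Tbx21, the gene of the transcription factor T-bet, read 7.11 and 6.68 against 8.65, 8.61 and 7.01, so its groups overlapped (1.19 log2, limma's adjusted p = 0.246). Cxcr3, a chemokine receptor gene that T-bet can switch on, read 7.60 and 7.12 against 8.64, 8.44 and 7.60. Itgax, Tbx21 and Cxcr3 come from a list of 6 genes drawn up for a CD11c+ T-bet+ kind of B cell. In all 3, c-myb h/h replicate 3 was at or near the control level. That array was also the lowest of the c-myb h/h arrays in the mean level of the B-1 list (7.40, 7.42 and 6.48, against 7.01 and 6.92 in controls). Fcrl5, Itgam and Zbtb32, the rest of the list, differed by 0.23, 0.19 and -0.21 log2 and overlapped between genotypes. Of the 6 genes, 1 (Itgax) had all c-myb h/h arrays above both controls, beside 13.7% of all rows. The list had a median difference of 0.55 log2, or 0.91 without c-myb h/h replicate 3 and 0.28 without control replicate 2. Which cells carry this RNA was not tested.

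T and natural killer cell genes were also higher on balance, all 7 tested genes of a list of 10 lying above 0 with a median of 0.61 log2. In 4 of them, beside 13.7% of all rows, the c-myb h/h arrays lay above both controls, and 0 passed the adjusted test. Their mean level was 6.01 and 5.75 in controls and 6.58, 6.15 and 6.62 in c-myb h/h arrays. Of the 4 T cell markers, Cd3g read 7.42 and 6.49 against 7.85, 7.79 and 7.69, and Cd4 overlapped. Without control replicate 2 the median of the list was 0.35 log2. The part of this list in the other differences was not tested.

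**Figure D4:**
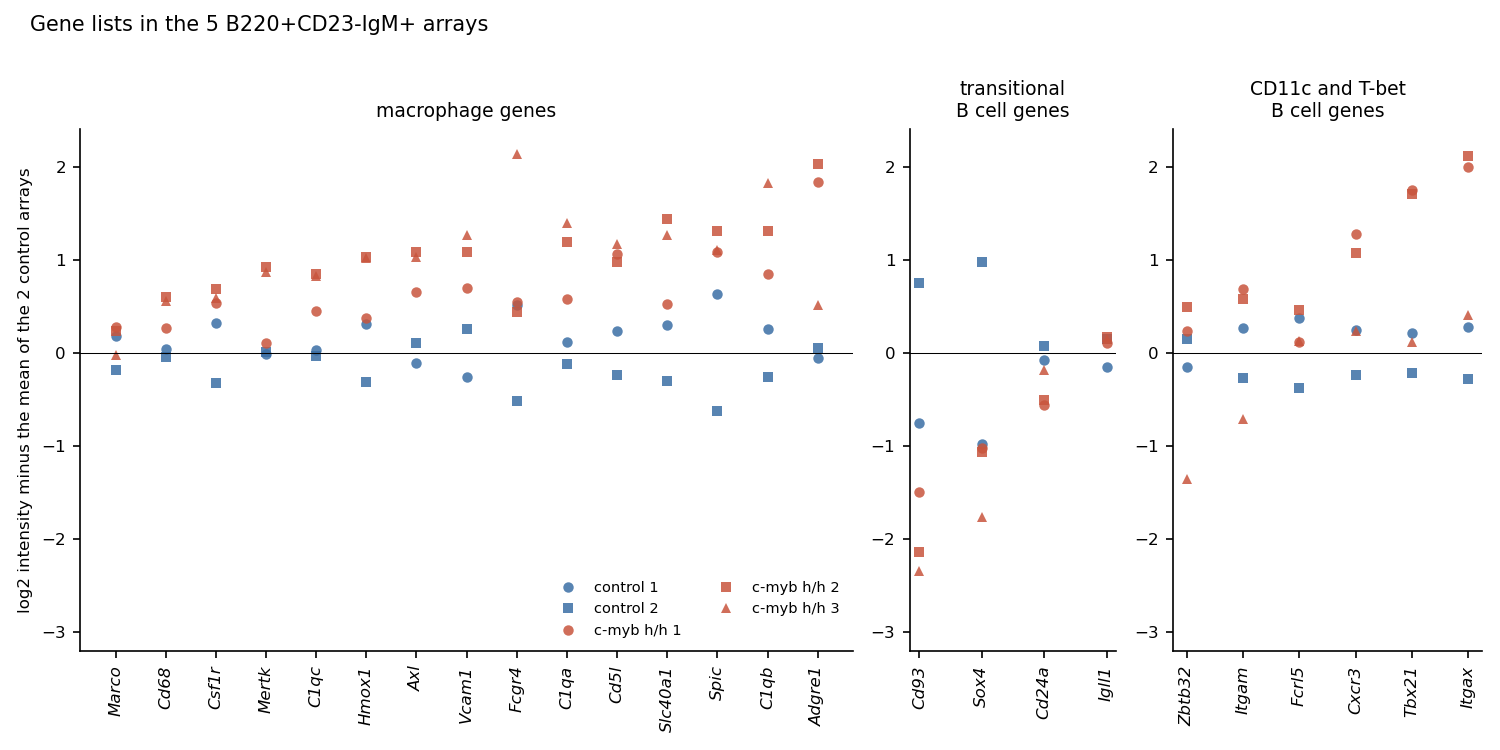
Log2 intensity minus the mean of the 2 control arrays (vertical axis) for the tested genes of 3 lists (horizontal axis) in the 5 B220+CD23-IgM+ arrays; blue is control, red is c-myb h/h, and the shape gives the replicate. Most macrophage genes have all c-myb h/h arrays above the controls, Cd93 and Sox4 are highest in control replicate 2, and Itgax, Tbx21 and Cxcr3 are high in c-myb h/h replicates 1 and 2 but not 3.

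The 5 placed marginal zone markers differed between the genotypes by -0.02 to 0.24 log2, and all had overlapping groups. Since only 13.7% of all rows lay wholly higher and 13.9% wholly lower, a count of 0 in 5 says little. Cr2, the complement receptor gene by which these cells take up coated antigen, read 12.58 and 12.09 in controls and 12.05, 12.15 and 12.73 in c-myb h/h arrays (-0.02 log2, SE 0.47). The markers were lowest on average in control replicate 2 (9.12) and highest in c-myb h/h replicate 3 (9.86). Of 6 further marginal zone genes, 1 had all c-myb h/h arrays above both controls, beside 13.7% of all rows. This was Tlr7, a sensor of single-stranded RNA (9.44 and 9.13 in controls, 9.51, 9.48 and 9.75 in c-myb h/h arrays). Asb2 overlapped at 0.70 log2 (limma's adjusted p = 0.521). B-1 cell and cell cycle lists had medians of 0.12 and 0.19 log2, with 0 of 7 and 0 of 9 tested genes not overlapping, beside 13.7% of all rows higher and 13.9% lower. The B-1 median was 0.46 log2 without c-myb h/h replicate 3 and -0.14 without c-myb h/h replicate 2, and the cell cycle median ran from -0.06 to 0.35 log2 when an array was left out. Immediate early genes, which respond within minutes to handling and stimulation, had a median of 0.18 log2. Of these genes 0 of 11 did not overlap, beside the same shares of all rows.

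Among genes of the B lineage itself, Ighm and Ptprc differed by 0.13 and 0.02 log2 and Cd79b by -0.20 log2. Of the 9 tested transcription factor genes, Id2, an inhibitor of E proteins, had the largest positive difference at 0.69 log2 (7.25 and 6.64 in controls, 7.67, 7.68 and 7.57 in c-myb h/h arrays, limma's adjusted p = 0.193). Pax5, Ebf1 and Ikzf1, which hold cells in the B lineage, had all c-myb h/h arrays below the controls, with differences of -0.33, -0.39 and -0.13 log2 that did not pass (limma's adjusted p = 0.804, 0.81 and 0.788). They were 3 of the 9 genes, beside 13.9% of all rows. The largest negative difference, that of Spib, was -0.64 log2, with overlapping groups. Of the 9 genes, 3 lay above and 6 below 0, with a median of -0.14 log2. Of the plasma cell markers, Jchain, which joins IgM subunits into pentamers, read 6.17 and 7.34 in controls and 8.21, 8.04 and 8.59 in c-myb h/h arrays (1.52 log2, limma's adjusted p = 0.234). Xbp1 was 0.24 log2 higher, and Sdc1 and Irf4 overlapped. In the cholesterol list, Abca1, the cholesterol export pump gene, read 9.35 and 9.12 in controls and 8.69, 8.50 and 8.74 in c-myb h/h arrays (-0.59 log2, limma's adjusted p = 0.193). Apoe read 0.45 log2 higher, and only 5 of the 13 genes of that list could be placed.

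Rows that mark IgM+CD138+ cells were used to ask whether the plasma cell program as a whole moved with genotype. The 481 rows at least 4-fold higher in control IgM+CD138+ than in control B220+CD23+ arrays, and called there, had a median level of 6.75 and 6.88 in the control B220+CD23-IgM+ arrays and of 6.97, 6.89 and 6.76 in the c-myb h/h arrays, which overlap. Their median in IgM+CD138+ arrays was 9.56 to 9.69. The 98 rows at least 4-fold lower there had a median of 9.08 and 9.08 in controls and 8.78, 8.89 and 8.83 in c-myb h/h arrays, a difference of -0.25 log2 with no overlap.

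Along the list, large differences were spread thinly, with a few denser stretches. Of 349 windows of 100 listed rows, 263 held 0 tested rows at least 2-fold apart, and 9 held 3 or more. The densest windows were rows 8101 to 8200, with 7 such rows of 52 tested, and rows 8201 to 8300, with 5 of 57, all of them higher in c-myb h/h cells. Another stretch lay around the called row 12624: the windows from row 12601 to row 12800 held 3 and 4 such rows, all between rows 12624 and 12753, 3 of them with a positive and 4 with a negative difference. Rows 39901 to 40000 also held 4, of which 39944, 39945 and 39946 have identical values. The alignment places rows 8159 to 8215 on Syne1, a gene of chromosome 10. It encodes nesprin-1, a giant protein that ties the nucleus to the cytoskeleton. Syne1 is covered by 57 placed probe sets, of which 44 were tested. Of these, 42 lay above 0 (49.8% of all rows did), 23 had all c-myb h/h arrays above both controls (13.7% of all rows), and 12 were at least 2-fold higher (0.424% of all rows), with a median difference of 0.69 log2. None passed the adjusted test (smallest limma's adjusted p = 0.0944), and 29 passed at an unadjusted p of 0.05, beside 8.66% of all rows. The largest difference, in row 8186, read 4.31 and 3.72 in controls and 6.0, 5.93 and 5.58 in c-myb h/h arrays (1.82 log2, SE 0.33). That of row 8206 followed, which read 5.5 and 5.63 against 8.09, 7.80 and 5.86 (1.69 log2, limma's adjusted p = 0.493). In some rows that overlapped, c-myb h/h replicate 3 lay at the control level. Row 8205 read 4.44 and 4.47 against 6.31, 6.31 and 4.45, and row 8209 read 5.92 and 5.33 against 8.20, 7.56 and 5.77. In B220+CD23+ cells 42 of the 44 rows also lay above 0, with a median of 0.49 log2, and in IgM+CD138+ cells 32 did, with a median of 0.17 log2. Probe sets of a gene read the same RNA and are not independent.

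**Figure D5:**
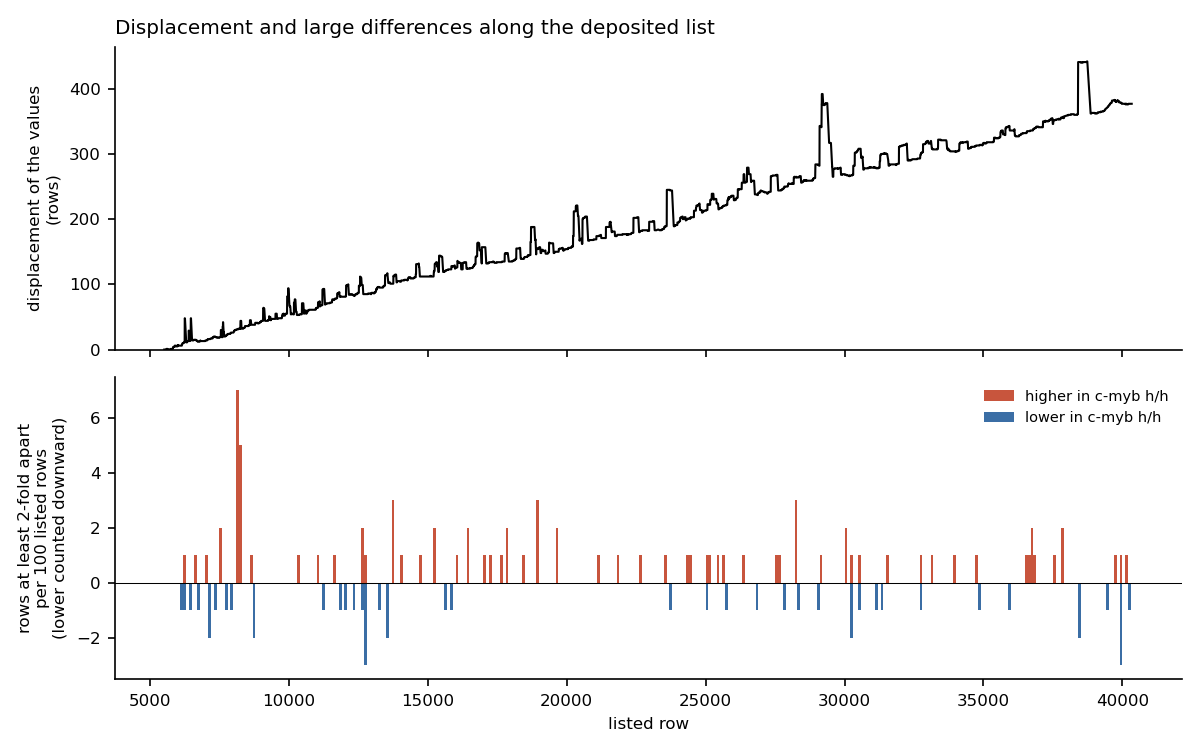
Upper panel, displacement of the values against their IDs in rows (vertical axis) along the deposited list (horizontal axis, listed row); short peaks lie where blank IDs come between. Lower panel, tested rows at least 2-fold apart per 100 listed rows, counted upward in red where c-myb h/h cells were higher and downward in blue where they were lower; the tallest bars, 7 and 5 rows, are the Syne1 block.

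The genotype difference in B220+CD23-IgM+ cells was not shown to differ from that in the other populations for any row. The interaction test called 0 of 19350 rows against B220+CD23+ cells (smallest limma's adjusted p = 0.896, 750 rows at an unadjusted p of 0.05) and 0 against IgM+CD138+ cells (smallest limma's adjusted p = 0.404, 1375 rows at an unadjusted p of 0.05). Ordinary least squares called 0 in both as well. Within B220+CD23+ cells 26 rows passed the genotype test (0.134%), and within IgM+CD138+ cells 37 did (0.191%). These comparisons use other arrays. Whether the same mice gave cells of several populations is not stated in the labels, and the test treated all arrays as separate. Of the 8 called rows, rows 39420, 31501, 5740 and 12624 also passed in B220+CD23+ cells, and rows 39420 and 26382 in IgM+CD138+ cells, each in the same direction.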

How the data were processed

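RNA of sorted spleen cells was measured on 17 expression arrays, 5 of them of B220+CD23-IgM+ cells. The deposited values are log2 intensities normalized by the authors with RMA, per the submitters' processing notes, which name no version. No scanner file was used here, and array medians lay between 5.13 and 5.21. A difference of log2 values is c-myb h/h minus control. Rows with values in all 17 arrays that exceeded the 50th percentile of their array in at least 2 arrays entered a linear model of 6 group means with moderated variances (limma 3.58.1, R 4.3.3, 11 residual degrees of freedom, 2-sided, Benjamini-Hochberg adjustment over all 19350 rows). The few arrays limit the precision. The text names every row called at an adjusted p of 0.05, the 10 largest differences in each direction among rows whose groups do not overlap, and the Myb rows. The plan had been to print symbols only as listed. Since the listed pairing was not borne out, symbols were taken instead from a probabilistic alignment in Python 3.11.15 that uses mean levels over all arrays, the platform annotation and RefSeq promoters. Several versions of it were tried, the final one after Sdc1 and Jchain had fallen 1 row off, and the probability threshold of 0.9 was set with values in view. The alignment and the limma fit were tested on simulated data. For the alignment, levels were redrawn along its own path, so that run cannot show that the real placements are right. Sure rows fell on the same ID in 99.7% of cases without promoters, or without family names after the first round. All versions were started from the same family names, so their agreement does not test that start. The comparison, gene lists and markers were chosen with earlier results of these data known. P-values measure the spread between these arrays. Alternatives covered the filter, normalization, arrays fitted, moderation, array weights, blocks and leaving out each array.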

Additional observations from a re-analysis of the deposited data

How the results depend on the processing

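The number of rows called between genotypes moved by over 1.5 times in several settings. It was 0 with only the 5 arrays, 19 with the 11 arrays of both B220+ populations, 22 with array weights, 18 under robust moderation with an intensity trend, 1 against a fold threshold of 1.5 and 4 among rows listed with 1 gene symbol. Leaving out 1 array gave 1 to 52 calls. The remaining settings gave 7 to 10. With the replicate number as a block, 25 rows were called (15 higher, 10 lower). Deviations of same-numbered arrays correlated at 0.109 and 0.231, and the numbers do not pair mice across genotypes. Row 39420 was tested in 18 settings and called in 17 of them, the exception being the fit of 5 arrays (limma's adjusted p = 0.0839); the restrictions to rows with 1 gene symbol leave it out. The interaction against IgM+CD138+ cells gave 0 to 2 calls when an array was left out, 2 without control replicate 1. Without the filter on dim rows, a setting chosen after seeing the data, 8208 of 33327 rows did not overlap, against 5334 of 19350 with it. The counts therefore have different bases, and the larger one is no larger share. The IgM+CD138+-high rows at least 16-fold apart differed by -0.093 log2 and the low rows chosen in c-myb h/h arrays by -0.14 log2. The difference of the Myb row 8275 ran from -1.02 to 0.34 log2 when an array was left out. The cause of these shifts was not tested. With 2 control arrays, a single array decides many calls.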

Other observations

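Il5ra, the gene of the interleukin-5 receptor alpha chain that B-1 and plasma cells carry, was placed on row 31354 and differed by -1.07 log2 in B220+CD23-IgM+ cells (limma's adjusted p = 0.2608), with all c-myb h/h arrays below both controls. It was singled out after its value had been seen.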
